A study of Mus musculus with 52 samples.

Results

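The genes described here are 10 genes of universal and inflammatory fibroblasts: Pdgfra, Dcn, Lum, Dpt, Pi16, Ccdc80, Clec3b, Fbln1, Has1 and Efemp1. They were taken by name from a table of 27525 genes, from a list drawn up with earlier results of these data known. All 10 were present in the table, and all 10 passed the filter on low counts in every comparison. RNA was sequenced from individual subcutaneous KPC tumors, with 8 tumors in each of 4 groups and 32 libraries in all. The groups were untreated tumors, tumors treated with ADU-S100, tumors treated with anti-LTβR antibody, and tumors treated with the combination of both agents. ADU-S100 is a cGAMP analog that activates STING, a sensor of cytosolic cyclic dinucleotides, and was injected once into the tumor at 2 μg. The anti-LTβR antibody 4H8 activates the lymphotoxin-β receptor and was given intraperitoneally at 100 μg for 4 doses. All tumors, the untreated ones included, were grown from the KxPxCx pancreatic cancer cell line in syngeneic male C57BL/6NHsd mice of 8 to 10 weeks. They were resected on day 14, counted from the start of treatment and not from the injection of the cells. The tumors therefore model 1 cell line placed under the skin, and their fibroblasts are those of the host. The comparisons ask how each agent, and the pair together, changed the levels of these genes and whether the effect of ADU-S100 differed in the presence of anti-LTβR.

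Fibroblasts are the cells that build and maintain the extracellular matrix of connective tissue. Universal fibroblasts, marked by Dpt and Pi16, are found around vessels and in the connective tissue of many organs and are regarded as a reserve from which more specialized fibroblasts arise. Inflammatory fibroblasts of pancreatic tumors secrete cytokines and hyaluronan and are known by genes such as Has1, Clec3b and Pdgfra, while myofibroblasts carry contractile proteins and make much of the fibrous matrix.

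Sequencing gave 12762453 to 15591986 reads assigned to genes in a library. Values are normalized counts, that is, the reads of a gene after scaling of each library by its own size factor. The summed level of 14 general fibroblast genes was 118868 or more in every library. Libraries differed in the amount of neighboring tissue. Summed skeletal muscle markers ranged from 5352 to 340707 and summed skin keratinocyte markers from 1250 to 56937 across the 32 tumors, and both ranges were wide in every group. The median muscle sum was 8303 in untreated tumors, 78498 after ADU-S100, 102267 after anti-LTβR and 94597 after both. The median keratinocyte sum was 12915, 4775, 4906 and 20085 in the same order. The fits were repeated with these sums as covariates. In bulk RNA, fewer cells of a type and less RNA per cell cannot be told apart.

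Sequence upstream of the RefSeq start site (GRCm38.p6) was at hand for 6 of the 10 genes, namely Dpt, Pdgfra, Efemp1, Fbln1, Has1 and Pi16. The 150 bases before the start are shown for 3 of them because they moved apart in the combination: Pdgfra and Dpt, which rose, and Has1, which fell. The capitals mark 1 motif in each, namely overlapping kappa B matches in Pdgfra, a STAT match in Dpt and a cyclic AMP response element (CRE) in Has1. The stretches are chr5:75152101-75152250 on the plus strand for Pdgfra, chr1:164796513-164796662 on the plus strand for Dpt, and chr17:17855189-17855338 on the minus strand for Has1.
Pdgfra: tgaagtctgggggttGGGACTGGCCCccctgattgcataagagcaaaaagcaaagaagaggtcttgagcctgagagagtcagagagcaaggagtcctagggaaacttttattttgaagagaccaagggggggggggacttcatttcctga
Dpt: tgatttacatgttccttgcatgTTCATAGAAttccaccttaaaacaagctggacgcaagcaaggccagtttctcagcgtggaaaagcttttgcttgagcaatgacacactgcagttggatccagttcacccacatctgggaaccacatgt
Has1: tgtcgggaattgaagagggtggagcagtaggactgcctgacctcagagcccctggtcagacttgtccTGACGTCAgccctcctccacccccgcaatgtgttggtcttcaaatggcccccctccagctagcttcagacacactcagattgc
Across 250 upstream bases and both strands, 8 motifs were searched, chosen with these sequences in view. They were the TATA box, CRE, E-box, AP-1, kappa B, STAT, ISRE and TEAD motifs. The CRE of Has1, searched as TGACGTCA, lay 83 to 76 bases before the start, and that motif was held by 1.55% of 32851 promoter windows of the same length. The STAT motif of Dpt, searched as TTCNNNGAA, lay 128 to 120 bases before the start and was held by 7.02% of windows. The kappa B matches of Pdgfra, which overlap each other from 135 to 125 bases before the start, are of a kind held by 45.8% of windows, and 1 of the start sites of Fbln1 also had such matches. Of the other motifs, the AP-1 motif (TGANTCA) was matched in Efemp1 and in none of the other windows of these genes, with 6.75% of all windows holding it. The TATA box, searched as TATAAA, was matched in none of them and in 12.4% of all windows. The ISRE motif was likewise matched in none of them and in 2.98% of windows, and the TEAD motif, searched as GGAATG, in none and in 12.6%. E-boxes (CANNTG) were matched in Dpt, Pdgfra, Efemp1, Fbln1 and Has1 and in 66.2% of all windows. These matches describe letters and not bound sites.

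In untreated tumors, Dcn, Dpt and Lum led the set. Levels can be compared between genes only per length, so the mean normalized count was divided by the length of the gene's exons in kb (GENCODE vM21). Dcn stood at 729 ± 253 per kb (SD, n = 8), Dpt at 647 ± 250 and Lum at 539 ± 152. Dcn was above Dpt in 4 of 8 tumors, so the first 2 ranks did not differ beyond their spread. Lum was above Ccdc80, at 325 ± 77.2 per kb, in 8 of 8 tumors. Clec3b followed at 248 ± 112 per kb and Fbln1 at 157 ± 32.4. The lowest genes were Efemp1 at 86.1 ± 48.9, Pi16 at 74.8 ± 33.5, Pdgfra at 74.7 ± 16.7 and Has1 at 66.3 ± 19 per kb, and neighbors among these 4 exchanged places from tumor to tumor. In the combination group Dpt led at 2464 ± 988 per kb, above Dcn in 6 of 8 tumors, and Has1 was last at 23.8 ± 9.07 per kb, below Pi16 in 8 of 8. As a share of the summed per-kb level of the 10 genes, Dpt took 21.4% ± 3.96 of untreated tumors and 29.2% ± 3.74 of combination tumors, and Has1 took 2.45% ± 1.02 and 0.306% ± 0.123.

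**Figure D1:**
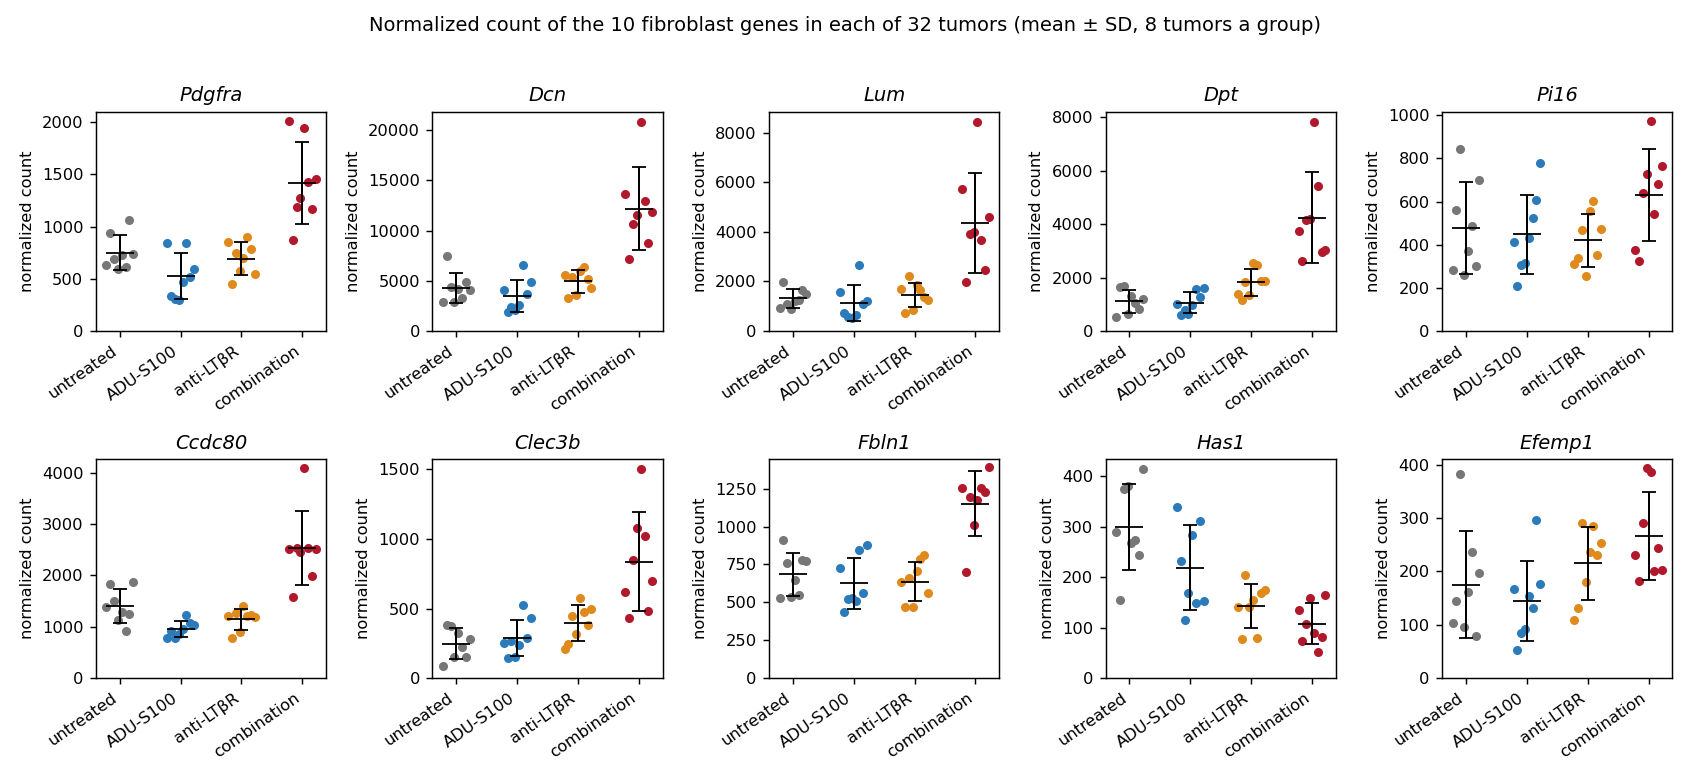
Normalized count (vertical axes, linear, from 0) of each of the 10 genes in every tumor, with 1 point for each of 8 tumors in a group and bars giving the mean ± SD. In the combination group 8 of 8 tumors lay above the highest untreated tumor for Dpt and Clec3b, while for Has1 6 of 8 lay below the lowest untreated tumor.

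The combination raised 8 of the 10 genes and lowered 1, Has1, against untreated tumors. Dpt rose 3.85-fold, Clec3b 3.48-fold, Lum 3.11-fold and Dcn 2.86-fold, and Pdgfra, Ccdc80, Fbln1 and Efemp1 rose by 1.65-fold to 1.87-fold. Pi16 did not pass the test. Calls are at a false discovery rate of 0.05 in limma over all 16909 genes tested, of which 19.6% were called higher and 23.6% lower. The median log2 difference of the 10 genes was 0.87 and that of all genes tested was -0.02. With a further demand of a 2-fold change, 4 of the genes were higher and 1 lower, against 5.16% and 0.952% of all genes.

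Pdgfra encodes the receptor for PDGF ligands that marks fibroblasts of most tissues. Its normalized count ran from 593 through a median of 709 to 1066 in untreated tumors and from 868 through 1354 to 2011 in combination tumors. The groups overlapped through 1 combination tumor, with 7 of 8 above the highest untreated value. The difference was 0.90 ± 0.163 on the log2(normalized count + 1) scale (SE; limma adjusted p = 0.000404).

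Dcn and Lum encode decorin and lumican, small leucine-rich proteoglycans that bind collagen fibrils. They are neighbors on chromosome 10 (Dcn at chr10:97479609-97518143 and Lum at chr10:97565128-97572703, GRCm38, both on the plus strand). Dcn ran from 2844 through 4144 to 7445 in untreated tumors and from 7118 through 11722 to 20829 in combination tumors. Only untreated tumor 2, at 7445, reached into the combination range. Its difference was 1.52 ± 0.210 (adjusted p = 5.52e-05). Lum ran from 884 through 1242 to 1974 in untreated tumors and from 1959 through 3965 to 8433 in combination tumors. The overlap was again of 1 tumor on each side, and the difference was 1.64 ± 0.250 (adjusted p = 0.00011).

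Dpt encodes dermatopontin, a matrix protein that binds decorin and shapes collagen fibrils. It ran from 541 through 1126 to 1693 in untreated tumors and from 2618 through 3956 to 7827 in combination tumors, with no overlap. Its difference of 1.95 ± 0.258 was the largest of the 10 (adjusted p = 4.03e-05) and lay at percentile 99.3 of all genes tested. Clec3b encodes tetranectin, a secreted C-type lectin domain protein that binds plasminogen. It ran from 86.2 through 253 to 382 in untreated tumors and from 435 through 772 to 1502 in combination tumors, also with no overlap, and differed by 1.80 ± 0.316 (adjusted p = 0.000317). Groups that did not overlap with the combination higher were seen for 4.64% of genes tested. Pi16 encodes a secreted peptidase inhibitor that marks the same universal fibroblasts as Dpt. It ran from 261 through 428 to 845 in untreated tumors and from 322 through 660 to 975 in combination tumors. Its difference of 0.44 had a 95% confidence interval of -0.13 to 1.01 and did not pass the test (adjusted p = 0.198, and 0.174 to 0.335 over 11 other settings).

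Ccdc80, a secreted matrix-associated protein, ran from 910 through 1342 to 1871 in untreated tumors and from 1584 through 2522 to 4099 in combination tumors. Combination tumor 5, at 4099, stood above the others, which ended at 2545, and the call held without it. Fbln1 and Efemp1 encode fibulin-1 and fibulin-3, secreted glycoproteins of basement membranes and elastic fibers. Fbln1 ran from 529 through 705 to 908 in untreated tumors and from 699 through 1211 to 1395 in combination tumors, with 7 of 8 above the untreated range. Ccdc80 differed by 0.85 ± 0.170 (adjusted p = 0.000877) and Fbln1 by 0.75 ± 0.142 (adjusted p = 0.000566). Efemp1 was the least certain of the set. It ran from 79.4 through 154 to 383 in untreated tumors and from 182 through 237 to 393 in combination tumors, and 2 of 8 combination tumors exceeded the untreated range. Its difference was 0.72 ± 0.281 with an adjusted p of 0.0476, and the call was lost in 8 of 11 other settings, with adjusted p from 0.0433 to 0.149.

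Has1 encodes a hyaluronan synthase, an enzyme that makes the polysaccharide hyaluronan at the cell membrane. It ran from 154 through 281 to 415 in untreated tumors and from 51.9 through 97.9 to 164 in combination tumors. Of the combination tumors, 6 of 8 lay below the untreated range, and only untreated tumor 2 reached down into the combination range. The difference was -1.51 ± 0.240 (adjusted p = 0.000153), a level 0.352 times that of untreated tumors. The levels rested on 45 to 173 reads in combination libraries. Of 8 tumor epithelial markers tested, 4 were lower, all of them keratins, and 4 were not called. Krt18 changed by -1.46 (adjusted p = 2.99e-05), Krt8 by -0.92 (0.000124), Krt7 by -1.27 (0.000899) and Krt19 by -0.67 (0.00525), while Epcam stood at 0.56 (0.309), Muc1 at 0.21 (0.353), Cldn4 at -0.21 (0.756) and Cdh1 at -0.27 (0.618). The summed tumor epithelial markers, which Krt8, Krt18 and Krt19 dominate, ran from 16206 to 29341 in untreated tumors and from 6945 to 14972 in combination tumors, without overlap. The part of these markers in the Has1 difference was not tested.

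The combination tumors also differed among themselves in a shared way. Tumor 2 was the lowest of the 8 for 9 of the 10 genes, all but Has1. Tumor 5 was the highest for 6 genes, namely Dcn, Lum, Dpt, Pi16, Ccdc80 and Clec3b.

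After anti-LTβR, Dpt rose and Has1 fell, and the other 8 genes did not pass the test, where 7.21% of 16691 genes were called higher and 8.10% lower. Dpt ran from 1154 through 1856 to 2556, with 5 of 8 tumors above the untreated range. Its difference was 0.76 ± 0.235 (limma adjusted p = 0.0398, and 0.0138 to 0.130 over 10 other settings). The call was lost without the filter on low counts (adjusted p = 0.0515), in edgeR with TMM scaling (0.0522) and with muscle and keratinocyte sums as covariates (0.130). Has1 ran from 78.4 through 148 to 205 and differed by -1.08 ± 0.223 (adjusted p = 0.00684, and 4.09e-05 to 0.0306 over the same settings). Of the 8 tumor epithelial markers tested, 4 were also lower after anti-LTβR, namely Krt18 at -0.75 (0.0043), Krt8 at -0.40 (0.0213), Krt7 at -0.75 (0.0328) and Cdh1 at -0.94 (0.0333), and 4 were not called. The part of these epithelial markers in the Has1 difference was not tested. The 6 muscle markers had a median difference of 1.62 with none called. With the muscle and keratinocyte sums as covariates Dpt stood at 0.52 and Has1 at -0.92, the latter still called (adjusted p = 0.0306). Clec3b differed by 0.75 ± 0.297 but missed the threshold (adjusted p = 0.0889). Pdgfra, at 450 to 903, had a difference of -0.12 with a 95% confidence interval of -0.43 to 0.20.

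After ADU-S100, 0 of the 10 genes passed the test, and 0 of 16613 genes did. At an unadjusted p under 0.05 there were 2408 genes, or 14.5%. DESeq2 on reads recovered from the deposited values called 57 genes, Ccdc80 among them at -0.56 (adjusted p = 0.019), and edgeR called 1 gene. Ccdc80 ran from 782 through 934 to 1226 and differed by -0.53 ± 0.135 in limma (adjusted p = 0.276). Pdgfra ran from 299 through 497 to 841, with 5 of 8 tumors below the lowest untreated tumor, and differed by -0.59 ± 0.218 (adjusted p = 0.293). The 6 muscle markers had a median difference of 1.58 with none called. With the muscle and keratinocyte sums as covariates Pdgfra stood at -0.40 (adjusted p = 0.426) and Ccdc80 at -0.60 (0.368). Of the 10 genes, 9 had point differences below 0 and Clec3b was at 0.25, none past the threshold. Has1 was at -0.49, with a 95% confidence interval of -0.99 to 0.01. The 3 comparisons with untreated tumors share the same 8 untreated libraries.

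**Figure D2:**
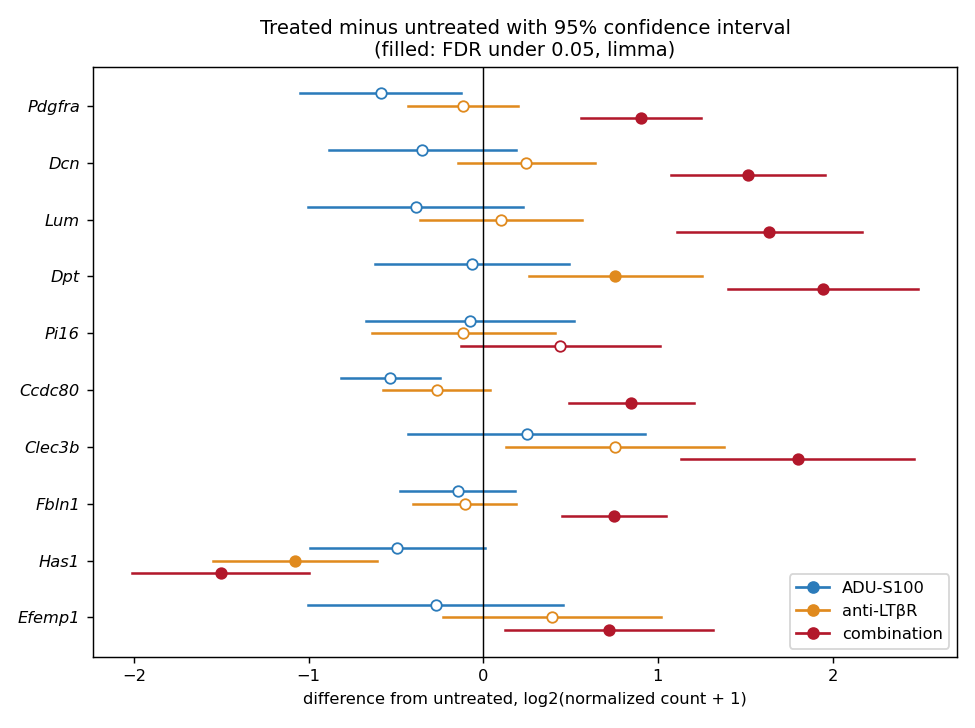
Difference of each treated group from untreated tumors on the log2(normalized count + 1) scale (horizontal axis) for each gene (vertical axis), with 95% confidence intervals from limma and filled points where the false discovery rate was under 0.05. The combination points of 8 genes that passed the test lie from 0.72 to 1.95, the open point of Pi16 lies at 0.44, and the filled point of Has1 lies at -1.51, while the points of ADU-S100 lie between -0.59 and 0.25.

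The combination was also set against each agent. Against anti-LTβR, 7 genes were higher (Pdgfra, Dcn, Lum, Dpt, Ccdc80, Clec3b and Fbln1) and 0 were lower, where 11.3% of 16932 genes were called higher and 15.3% lower (1917 and 2587 genes, but 2087 and 1743 in edgeR with TMM scaling). The differences of these 7 ran from 0.86 for Fbln1 to 1.54 for Lum. The groups did not overlap for Dcn, Dpt and Ccdc80, as for 1.45% of all genes in this direction. Dcn, for example, ended at 6344 in anti-LTβR tumors and began at 7118 in combination tumors (1.27 ± 0.189, limma adjusted p = 0.000732). Has1 differed by -0.43, with an interval of -0.96 to 0.11 (adjusted p = 0.222). With muscle and keratinocyte sums as covariates it differed by -0.83 (adjusted p = 0.00246). Pi16 differed by 0.55 (adjusted p = 0.0791, and 0.0256 to 0.225 over 10 other settings).

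Against ADU-S100, 8 genes were higher and Has1 was lower, where 20.2% of 16811 genes were called higher and 26.0% lower (3391 and 4368 genes, but 3564 and 3352 in edgeR with TMM scaling). Ccdc80 gave the smallest adjusted p of the set, at 8.31e-06, for a difference of 1.38 ± 0.146. The groups did not overlap for Pdgfra, Dcn, Dpt and Ccdc80, as for 5.00% of all genes in this direction. Has1 differed by -1.01 ± 0.266 (limma adjusted p = 0.00511). Efemp1 was higher by 0.99 ± 0.286 (adjusted p = 0.00918) and lost the call with the marker sums as covariates (0.0792). Between the 2 agents, 1 gene differed: Dpt was higher after anti-LTβR than after ADU-S100 by 0.82 ± 0.222 (adjusted p = 0.038, and 0.0168 to 0.0666 over 9 other settings), where 3.38% of 16649 genes were called higher and 3.04% lower. That call was lost without the filter and when all groups were fitted together. Has1 differed by -0.59 (0.163) and was called lower with the marker sums as covariates (-0.62, adjusted p = 0.0385).

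For 6 of the 10 genes the effect of ADU-S100 depended on anti-LTβR. The interaction is the ADU-S100 effect in the presence of anti-LTβR minus its effect without, on the log2 scale, fitted over all 32 tumors. It was positive and passed the test for Pdgfra, Dcn, Lum, Dpt, Ccdc80 and Fbln1, where 7.33% of 17649 genes were called positive and 11% negative. Lum had the largest value, 1.92 ± 0.421 (limma adjusted p = 0.00251), followed by Ccdc80 at 1.65 ± 0.214 (9.15e-05), Dcn at 1.62 ± 0.329 (0.0015) and Pdgfra at 1.61 ± 0.289 (0.000597). Dpt stood at 1.25 ± 0.355 (0.0138) and Fbln1 at 1.00 ± 0.219 (0.00249). The mean of Pdgfra went from 749 ± 167 (SD, n = 8) in untreated tumors to 527 ± 221 after ADU-S100, but from 693 ± 158 after anti-LTβR to 1419 ± 391 after both. The same 6 calls held in all 10 other settings. Markers of other cells had interactions too. It was called positive for 7 of 8 blood endothelial markers (median 0.80), 4 of 8 pericyte markers (0.56) and 1 of 7 keratinocyte markers (1.92). It was called for 0 of 8 leukocyte markers (median 0.21) and 0 of 6 muscle markers (-1.76). Apart from the fits with muscle and keratinocyte sums, the part of these cells in the 6 interactions was not tested. Over all genes, 1293 positive and 1947 negative calls in limma became 1476 and 1399 in edgeR with RLE scaling and 1692 and 1596 in DESeq2.

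The other 4 genes gave no interaction past the threshold. Clec3b stood at 0.80 with an interval of -0.08 to 1.68 (limma adjusted p = 0.202), Pi16 at 0.63 with -0.14 to 1.4 (0.252), and Efemp1 at 0.60 with -0.27 to 1.47 (0.343). Has1 stood at 0.06, with an interval of -0.67 to 0.80 (0.922), and at -0.37 with the marker sums as covariates. Its means were 299.6 ± 85.8 in untreated tumors, 219 ± 84.7 after ADU-S100, 143 ± 44.2 after anti-LTβR and 108 ± 41.0 after both.

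**Figure D3:**
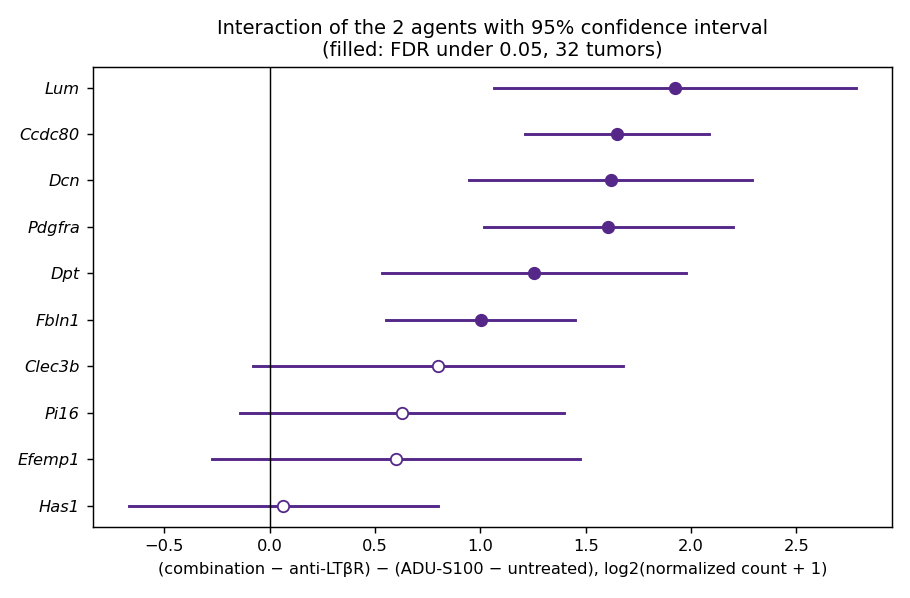
Interaction of the 2 agents for each gene (vertical axis) as the log2 difference of the ADU-S100 effect with and without anti-LTβR (horizontal axis), with 95% confidence intervals from 32 tumors and filled points where the false discovery rate was under 0.05. Lum, at 1.92, stands at the top, and Has1, at 0.06, is nearest to 0.

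In the combination, 5 of the other 9 genes changed relative to Pdgfra and 4 did not pass the test. Each gene was divided by Pdgfra within the same tumor and all genes were refitted in limma, a comparison chosen after the values above were seen. Relative to Pdgfra, 75.4% of 16908 genes were lower and 1.36% higher in combination than in untreated tumors, since Pdgfra itself rose. Dpt was higher by 1.04 ± 0.231 (adjusted p = 0.000395), Clec3b by 0.90 ± 0.285 (0.00695), Lum by 0.74 ± 0.162 (0.000356) and Dcn by 0.61 ± 0.153 (0.00112). Lum exceeded the highest untreated ratio in 7 of 8 combination tumors. Ccdc80 at -0.05, Fbln1 at -0.15, Efemp1 at -0.18 and Pi16 at -0.46 did not pass the test. Has1 was lower by -2.41 ± 0.290 (adjusted p = 1.1e-05), and its ratio lay below the lowest untreated ratio in 8 of 8 combination tumors. How many of all genes were separated in this way was not counted. After anti-LTβR, Dpt was higher relative to Pdgfra by 0.87 ± 0.218 (adjusted p = 0.0468, where 1.03% of genes were higher and 0.168% lower), which was lost with the marker sums as covariates (0.270), and Has1 stood at -0.96 (0.0871). After ADU-S100 none of the 9 genes passed, and 0 of 16612 genes did.

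**Figure D4:**
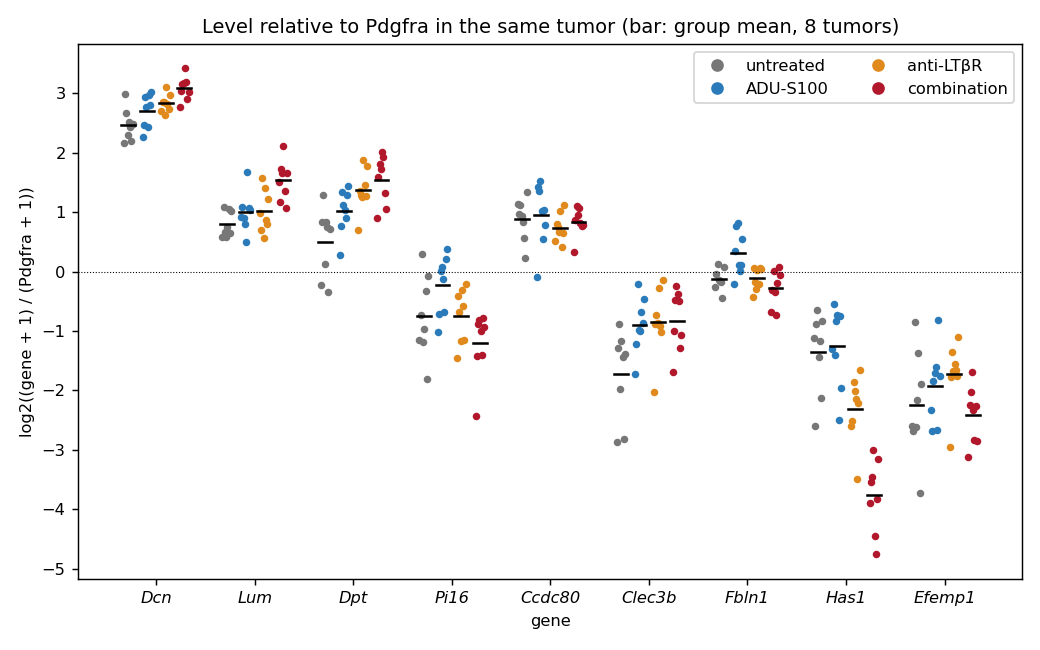
Log2 of the level of each of 9 genes over that of Pdgfra in the same tumor (vertical axis), with 1 point for each tumor and a bar for the mean of 8 tumors in a group. The combination bars of Dcn, Lum, Dpt and Clec3b lie above the untreated bars by 0.61 to 1.04, and the Has1 bar lies 2.41 below.

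Within groups, tumors rich in one of these genes tended to be rich in the others, with Has1 apart. After subtraction of the group means, 45 pairs were correlated over 32 tumors, with p-values from 100000 permutations within groups and Benjamini-Hochberg adjustment over the pairs. For the 36 pairs without Has1, Pearson's r ran from 0.295 to 0.939 with a median of 0.677, and 31 pairs had an adjusted p under 0.05. For the 9 pairs with Has1, r ran from -0.0894 to 0.333, and 0 pairs did. The closest pair was Dpt and Clec3b (r = 0.939 and Spearman's rho = 0.940, each with permutation p = 1e-05, the smallest they can give, adjusted p = 3.46e-05 and 4.5e-05; r = 0.925 without the 2 tumors farthest in Dpt). The neighbors Dcn and Lum gave r = 0.914 and rho = 0.897 (permutation p = 1e-05 for each, adjusted p = 3.46e-05 and 4.5e-05; r = 0.898 without the 2 farthest tumors in Dcn). Within single groups, r of Dcn and Lum was 0.878 (untreated tumors), 0.932 (ADU-S100), 0.911 (anti-LTβR) and 0.961 (combination). Pdgfra was closest to Lum and Dcn, and Pi16 and Efemp1 were close to each other and to Dpt and Clec3b.

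**Figure D5:**
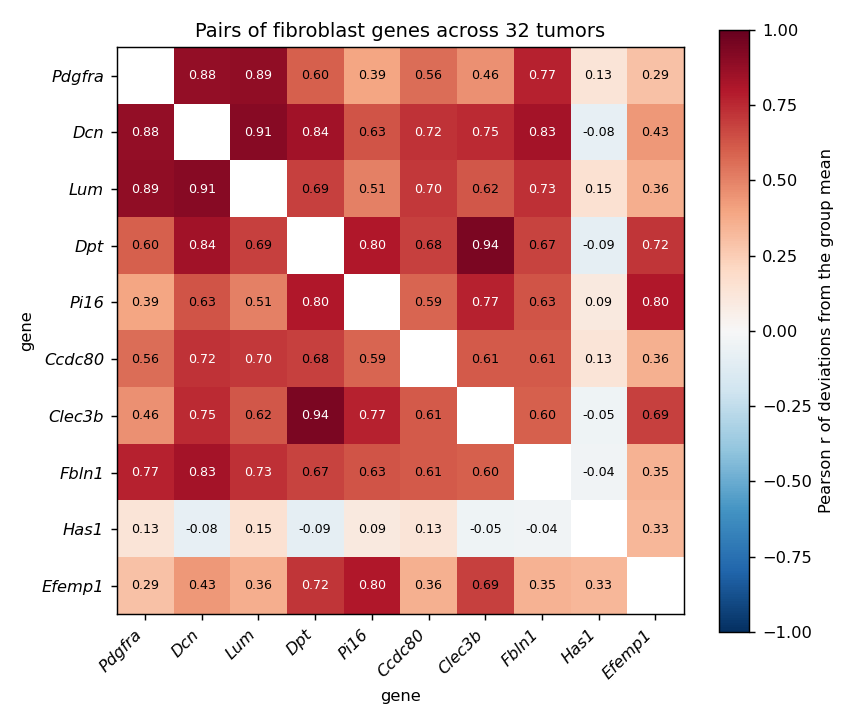
Pearson correlation of each pair of genes over 32 tumors, on log2(normalized count + 1) after subtraction of the group means, with red for positive and blue for negative values. Dpt and Clec3b, at 0.94, are the deepest cell, and the row of Has1 is pale throughout.

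Summed markers of other cells moved with some of these genes inside the groups. Of 50 pairs of a gene with a summed marker level, 16 had an adjusted p under 0.05 by both Pearson and Spearman correlation. They were 8 of 10 pairs with blood endothelial, 3 of 10 with tumor epithelial, 3 of 10 with keratinocyte, 1 of 10 with muscle and 1 of 10 with leukocyte markers. The muscle pair was that of Lum, at r = -0.498 and rho = -0.472 (permutation p = 0.00526 and 0.00923, adjusted p = 0.0204 and 0.0271). Without the 2 farthest tumors its r was -0.378, and within untreated tumors alone it was 0.303. Pdgfra passed with muscle markers by Pearson correlation only. Pdgfra had r = -0.446 and rho = -0.378 with muscle markers (permutation p = 0.0127 and 0.0386, adjusted p = 0.0398 and 0.0877; r = -0.317 without the 2 farthest tumors), but r = 0.285 within untreated tumors alone, against -0.764, -0.471 and -0.640 in the ADU-S100, anti-LTβR and combination groups. Has1 went with the keratin-dominated sum of tumor epithelial markers, at r = 0.624 and rho = 0.622 (permutation p = 0.00028 and 0.00071, adjusted p = 0.00233 and 0.00444; r = 0.589 without the 2 farthest tumors). Within groups that r was 0.327, 0.848, 0.365 and 0.835 for untreated, ADU-S100, anti-LTβR and combination tumors. Dpt, in contrast, had r = -0.507 and rho = -0.503 with the same markers (permutation p = 0.00737 and 0.00783, adjusted p = 0.0263 and 0.0271; r = -0.411 without the 2 farthest tumors). Its r within the groups was -0.570, -0.305, -0.775 and -0.606. Has1 also went with keratinocyte markers, at r = 0.596 and rho = 0.569 (permutation p = 0.00082 and 0.00203, adjusted p = 0.00512 and 0.0106). Without the 2 farthest tumors that r was 0.506, and within the groups it was -0.071, 0.643, 0.772 and 0.881. Pdgfra went with blood endothelial markers at r = 0.724 and rho = 0.700 (permutation p = 2e-05 and 4e-05, adjusted p = 0.000333 and 0.000667; r = 0.708 without the 2 farthest tumors), with r of 0.180, 0.776, 0.967 and 0.808 within the groups in the same order. What these shared movements rest on was not tested.

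The genes outside the set whose spread within groups was most like the mean of the 10 were Cd34 (r = 0.933), Col3a1 (0.903), Olfml1 (0.884), Nova1 (0.881), Mmp2 (0.879), Htra3 (0.878), Lrrn4cl (0.877), Col6a6 (0.874), Sfrp2 (0.873) and Thbs3 (0.872), over 32 tumors. All 10 were higher in combination than in untreated tumors, from 0.85 for Htra3 to 3.41 for Col6a6, and 8 of them, all but Cd34 and Col6a6, had a positive interaction past the threshold. Cd34, a sialomucin of vascular and adventitial cells, rose by 1.37 ± 0.229 (limma adjusted p = 0.000217).

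Of 18 other genes of universal and adventitial fibroblasts, 11 were higher, 3 lower and 4 not called in combination against untreated tumors. Their median log2 difference was 1.00. Among all genes 19.6% were higher and 23.6% lower. Col14a1, a collagen at fibril surfaces, rose by 2.01 ± 0.255 (limma adjusted p = 2.95e-05). The 3 that fell were Sema3c at -1.92 ± 0.221 (1.72e-05), a secreted guidance cue, Ackr3 at -0.87 ± 0.104 (2.05e-05), a chemokine scavenger, and Anxa3 at -0.69 ± 0.0913 (4.01e-05), an annexin. Sema3c ran from 1018 to 2811 in untreated and from 327 to 773 in combination tumors, without overlap. Of the 18 genes, 5 were higher and 3 lower after anti-LTβR, beside 7.21% and 8.10% of all genes. Sema3c was among the lower ones, at -1.19 (limma adjusted p = 0.00182).

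Of 16 cytokines and secreted factors of inflammatory fibroblasts, 5 were higher, 3 lower and 8 not called in the combination, with a median of -0.14, beside 19.6% higher and 23.6% lower among all genes. The chemokine Cxcl12 rose by 1.04 ± 0.177 (limma adjusted p = 0.00026), complement C3 by 1.65 ± 0.315 (0.000606) and the adhesion protein Svep1 by 0.65 ± 0.170 (0.00562), and Plpp3, a lipid phosphatase, fell by 0.50 on the log2 scale (0.00135). Il6 stood at -0.02 (adjusted p = 0.976). The interaction was positive for 8 of the 16 and negative for 1.

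Of 9 other small leucine-rich proteoglycans tested, 8 were higher and 0 lower. Kera, or keratocan, which belongs to the same gene family as Lum, rose from 1.00 to 24.6 in untreated tumors to 30.2 to 148 in combination tumors (3.53 ± 0.447, limma adjusted p = 2.95e-05), a low level in every group. Aspn rose by 1.45, Fmod by 1.78 and Bgn by 1.02. Of 9 other fibulins and elastic fiber genes, 7 were higher and 0 lower, led by Mfap4 (2.53 ± 0.282, 1.35e-05), with Fbln7 at 1.39, Fbn2 at 1.5 and Eln at 1.31. Of 13 general fibroblast genes tested, 12 were higher and 0 lower, including Col1a2 at 1.66, Col3a1 at 1.58, Sparc at 1.25 and Fstl1 at 1.07. Of 12 myofibroblast genes, 5 were higher and 1, Igfbp3, was lower (-0.95), and 9 had a positive interaction, beside 7.33% of all genes. Among them Cthrc1 rose by 1.71, Postn by 1.20 and Acta2 by 0.83.

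The other hyaluronan synthases did not pass the test in the combination. Has2 differed by 0.36 ± 0.147 (limma adjusted p = 0.0568) and Has3 by 0.21 ± 0.445 (0.725). Has2 stood at 1077 ± 236 in untreated and 1386 ± 298 in combination tumors. Of 12 other hyaluronan genes, 2 were higher and 3 lower, shares near the 19.6% and 23.6% of all genes. Ugdh, which makes a sugar precursor of hyaluronan, changed by -0.65 ± 0.0868 (4.28e-05), the receptor Cd44 by -0.50 ± 0.0691 (5.67e-05) and the hyaluronidase Hyal2 by -0.45 ± 0.0594 (3.79e-05), and Lyve1, a receptor of lymphatic vessels and some macrophages, by 1.37 ± 0.292 (0.00137).

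Of 6 genes of PDGF signaling, 4 were higher and 2 lower in the combination. Pdgfb, a ligand made by endothelial cells and platelets, rose by 0.58 ± 0.0823 (limma adjusted p = 6.57e-05), Pdgfd by 0.79 ± 0.191 (0.00324) and the receptor-like Pdgfrl by 1.29 ± 0.216 (0.000223). Pdgfa, a ligand of the Pdgfra receptor, changed by -0.44 ± 0.103 (0.00289). Of 10 tested genes of lymphoid stroma, 7 were higher, 0 lower and 3 not called. The higher ones included the chemokine Ccl21a at 1.93, the adhesion molecule Vcam1 at 1.16 and Pdpn at 0.86. The mean of Cxcl13, another chemokine of the list, went the other way with no call. It was 31.3 ± 18.0 in untreated and 15.7 ± 10.3 in combination tumors. Pdpn and Icam1, 2 of the 10, had a positive interaction, beside 7.33% of all genes.

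Markers of other cells also differed between combination and untreated tumors. All 8 blood endothelial markers were higher, from 0.71 for Pecam1 to 1.48 for Cldn5, with Tie1 at 1.26, Egfl7 at 1.43 and Cdh5 at 0.90. Their sum ran from 1430 to 2075 in untreated and from 2711 to 4001 in combination tumors, without overlap. Of 8 leukocyte markers, 7 were higher, among them Ptprc at 0.59, Cd68 at 0.85, Lyz2 at 1.28 and Cd3e at 1.01, and their sum ran from 15545 to 31022 and from 28725 to 69093. Of 7 tested pericyte markers 5 were higher, and of 6 Schwann cell markers 4 were. None of 6 adipocyte, 7 keratinocyte and 6 muscle markers was called, although the point differences of the muscle markers ran from 1.30 to 1.56. Of 3 tested mesothelial markers, Slpi was higher (1.88), Msln lower (-1.53) and 1 not called. Msln had group means of 1170 to 3411 and Slpi of 977 to 5356. The other markers of the list, Upk3b, Lrrn4, Wt1, Nkain4 and Upk1b, were low, with group means of 2.22 to 16.7. Single tumors reached 46.6 for Upk3b and 40.6 for Upk1b. Apart from the fits with muscle and keratinocyte sums, the part of a changed cell makeup in the values of the 10 genes was not tested.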

How the data were processed

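Poly(A) RNA of individual tumors was sequenced in strand-marking paired-end libraries. Per the labels, submitters' processing notes name cutadapt 1.9, FastQC, HISAT2, StringTie, STAR, Partek, DESeq2 and edgeR, with build mm39. The methods of the study give HISAT2 (to an Ensembl mouse genome) and StringTie for mouse tumors, and whether both tables below came from that route is not given in the sources used here. The deposited table of 32 libraries holds a signal, reads of each gene scaled by the authors with a size factor of its library. The larger deposited table (52 libraries) holds a signal of the same kind, from which whole reads were recovered by dividing by the worth of 1 read (at least 99.8% of values within 0.05 reads of a whole number). In 16 libraries that worth lay within 2% of 1. A deposited list of the authors' gene set scores, p-values and FDR per comparison was not used.

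Groups and replicates are those of the labels. The other 20 libraries, 15 with contradictory labels, enter no comparison. The alleles behind the cell line are not reported here. Values were filtered with filterByExpr (minimum count 10) and tested on log2(normalized count + 1) with limma 3.58.1 (trend, R 4.3.3) over all genes, with Benjamini-Hochberg adjustment, each pair on its own 16 libraries and the interaction on all 32. A fold on this scale understates changes of low genes. edgeR 4.0.16 and DESeq2 1.42.0 on recovered reads were alternatives, as were other filters, a pseudocount of 0.5, a joint fit, a replicate block and a 2-fold demand. Covariates of marker sums, ratios to Pdgfra, and fits without 1 of 2 tumors were chosen after seeing the data. The fits were tested on simulated data.

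The genes and lists were chosen with earlier results of these data known. Named besides the 10 genes were up to 4 of each list by adjusted p in combination against untreated tumors, the 10 genes most alike within groups, and genes a result turned on. Il6, Has2, Has3, Pecam1, Epcam, Muc1, Cldn4, Cdh1, Cxcl13 and the low mesothelial markers were named after their values were seen. Positions are GENCODE vM21 and RefSeq (GRCm38). Pearson and Spearman correlations used permutations within groups.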

Additional observations from a re-analysis of the deposited data

Results flagged for a closer look

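Among 40 sets of 8 tumors (10 genes in 4 groups), 2 held a tumor far from the other 7, where chance flags about 1 in 20. Untreated tumor 2 had a Dcn count of 7445, against 2844 to 4870 in the other untreated tumors. Its summed muscle markers, 118600, were the highest of the untreated group, and it was also the highest untreated tumor for Lum, Clec3b and Fbln1 and the lowest for Has1. Combination tumor 5 had a Ccdc80 count of 4099, against 1584 to 2545 in the other combination tumors. Its summed muscle markers were 12278 and its endothelial marker sum, 4001, was the highest of the 32 tumors. Without either tumor, Dcn and Ccdc80 kept their calls against untreated tumors and in the interaction, and Efemp1 lost its call against untreated tumors (adjusted p = 0.0702 without untreated tumor 2 and 0.0909 without combination tumor 5, limma).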

How the results depend on the processing

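No single-gene difference changed sign with a call: of 695 values of the 10 genes under other settings, 674 kept their side of the threshold, 14 lost it and 7 gained it. With a 2-fold demand the called genes numbered 5 (combination against untreated), 1 (anti-LTβR against untreated) and 0 (anti-LTβR against ADU-S100), beside 1034, 173 and 100 of all genes. After anti-LTβR, 1 of the 10 genes was called against untreated tumors without the filter, in edgeR with TMM and with marker sums as covariates. After ADU-S100, DESeq2 called 1. Between the agents 0 were called without the filter and in the joint fit, and 2 (Dpt and Has1) with the covariates. Over all genes, anti-LTβR against untreated gave 2555 calls, 1660 with the replicate block and 1368 with the covariates, and anti-LTβR against ADU-S100 gave 1069, and 445 with the block, 710 without the filter, 475 in the joint fit and 1636 in DESeq2. Tumors with the same replicate number in 2 groups correlated from -0.546 to 0.629, with a mean r between groups from -0.0855 to 0.186. Tumors of different numbers were not correlated, so whether the numbers pair the tumors is not settled. With the replicate block 8 of the 10 genes were called in combination against untreated tumors, 3 for anti-LTβR, 0 for ADU-S100, 8 and 10 for combination against anti-LTβR and ADU-S100, 1 between the agents and 6 for the interaction, beside 6938, 1660, 2, 4561, 7281, 445 and 3300 of all genes. The causes were not tested. With the block Clec3b was called after anti-LTβR (adjusted p = 0.0444, limma) and Pi16 against each agent (0.0362 and 0.0386). Ratios of group means from library-scaled recovered reads moved by less than 1 SD in all 30 cases. The depth, 12762453 reads or more, leaves each of the 10 genes at 45 reads or more in every library.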

Other observations

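The 20 libraries of another experiment were not compared with the groups. In CPM of recovered reads, the 5 whose labels all give the combination ran for Dpt from 112 through a median of 209 to 779, for Dcn from 107.5 through 1286 to 2205, for Lum from 14 through 428 to 895, for Pdgfra from 7.11 through 45.4 to 142 and for Has1 from 1.04 through 1.65 to 9.29. The lowest values of Dpt, Dcn, Lum and Pdgfra all came from library 3, which held 8716257 reads against 18028313 to 18789131 in the other 4. The same library had the highest Pi16, at 240 CPM against 18.1 to 45.3 in the other 4. Without library 3 the lowest values were 201 for Dpt, 636 for Dcn, 213 for Lum and 33.2 for Pdgfra. The 15 libraries with contradictory labels ran for Dpt from 21.4 through 75.6 to 670, for Dcn from 75.6 through 334 to 2082, for Lum from 45.7 through 108 to 1127, for Pdgfra from 18.5 through 47.7 to 176 and for Has1 from 1.37 through 4.80 to 11.3.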
